A study of Mus musculus with 6 samples.

Results

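Planar cell polarity is the alignment of cells within the plane of a sheet or tube, and noncanonical Wnt receptors pass Wnt signals on without beta-catenin. In the core polarity system Vangl1, Vangl2 and Prickle1 gather on the cell face opposite to frizzled and Dishevelled proteins, and Celsr1 bridges neighbouring cells. In the developing mouse kidney this system takes part in the branching of the ureteric bud and the shaping of tubules. Fat4 and Dchs1 form a parallel system of giant cadherins that bind each other between neighbouring cells. The 10 genes examined were the receptors Ror1, Ror2, Ryk and Ptk7, the core genes Vangl1, Vangl2, Celsr1 and Prickle1, and the cadherins Fat4 and Dchs1. They were taken as all genes of a fixed name list, and every probe set that the platform annotation gives to a member alone was read. These were 21 probe sets of the 45101 on the array, for 10 genes of the 18193 that the annotation names alone.

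The samples were whole mouse kidneys at E13.5, 3 Fz4-/- and 3 Fz4+/+, hybridised to Affymetrix MOE430.2 arrays. Fz4 is the protein of Fzd4, a frizzled receptor for Wnt ligands and Norrin. Litters 1, 2 and 3 each gave 1 sample of each genotype, and the labels name no strain and do not say whether a sample held 1 embryo or several. A p-value therefore measures the spread between these samples. Levels are log2 values of the RMA method, which are not comparable between probe sets, so no gene is ranked against another. In whole kidneys, fewer cells of a type and less RNA per cell cannot be told apart.

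Fzd4 read 4.37, 3.58 and 6.22 log2 in Fz4-/- kidneys of litters 1 to 3, against 11.21, 11.12 and 10.31 log2 in Fz4+/+ kidneys, on its brightest probe set, in keeping with the labels. Even so, limma's adjusted p for Fzd4 was 0.999988 on its 2 tested probe sets, with differences of -6.16 ± 0.68 and -3.44 ± 0.35 (SE, unadjusted p of 9.57e-05 and 5.98e-05). The arrays had median levels of 6.62 to 6.74 log2. The first principal component held 70.8% of the variance and set litter 3 (48.7 in Fz4-/-, 70.1 in Fz4+/+) apart from the others (-48.9 to -0.1). On the second, the Fz4+/+ array of litter 2 stood at -32.7, the others between -10.5 and 20.1. That array had the lowest mean level of 12 ureteric epithelium markers, 9.22 log2 against 9.58 to 9.72 in the others. It also had the highest mean of 8 striated muscle markers, 8.90 log2 against 6.11 to 8.05. The lowest of these means, 6.11 log2, was that of the Fz4-/- array of the same litter. That Fz4-/- array was lowest for the liver and macrophage markers as well.

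None of the 10 genes passed the test between Fz4-/- and Fz4+/+ kidneys, and on the tested probe sets no gap between the genotypes cleared the spread between samples. Of the 21 probe sets, 18 had a mean level of at least 5.89 log2, the 40th percentile of the array, and were tested. The other 3 belong to Ror1 (2 probe sets) and Prickle1 (1 probe set), each of which also had a tested probe set. limma called 0 of the 18 at an adjusted p under 0.05, where it called 0% of the 27022 probe sets tested, and each member's adjusted p was 0.999988. The deleted gene did not pass this test either, so the absence of calls does not show that the members were equal between genotypes. At an unadjusted p under 0.05 there were 0 of 18, beside 0.884% of all tested probe sets. That share is 239 probe sets, where 1351 would be expected if none differed and all samples were independent. Samples of the same litter were not clearly so, as their deviations from the genotype means correlated by 0.577, 0.178 and 0.809 in litters 1, 2 and 3. With the litter as a block the member counts were again 0 of 18, beside 0% adjusted and 3.11% unadjusted over all. The genotypes overlapped on every one of the 18, where 3.64% of all tested probe sets did not overlap.

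On their brightest probe sets the differences of the 10 genes, Fz4-/- minus Fz4+/+, ran from -0.00291 to 0.14 on the log2 scale. The 95% intervals of these differences reached at most from -0.79 to 1.03, both for Vangl1. Every one of these intervals included 0, and those of the other 9 genes were narrower than that of Vangl1. With 3 arrays a genotype, this fit does not exclude differences as large as the ends of the intervals. It has genotype as the only term, and with the litter as a block the Vangl1 interval was -0.17 to 0.41. Leaving out a single array turned the sign for 9 of the 10 genes. Ryk was the exception, but it fell to 8.36e-05 without the Fz4-/- array of litter 3. Its other probe sets reached -0.00471 and -0.21 with an array left out. Leaving out the Fz4+/+ array of litter 1 turned the sign for 6 genes, namely Ror1, Ror2, Vangl1, Prickle1, Fat4 and Dchs1.

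Weighting the arrays by limma's estimate of their variability moved 7 of the 10 differences to 0.37 or more. They were then 0.37 ± 0.11 for Ror1, 0.61 ± 0.17 for Ror2, 0.41 ± 0.17 for Ptk7, 0.59 ± 0.21 for Vangl1, 0.43 ± 0.14 for Prickle1, 0.52 ± 0.16 for Fat4 and 0.40 ± 0.15 for Dchs1 (SE). Ryk at 0.02, Vangl2 at 0.10 and Celsr1 at 0.03 stayed closer to 0. limma called 0 of the 18 member probe sets in that fit, beside 0.00740% of all tested probe sets, which were the 2 of Fzd4 (adjusted p of 0.0370 each). The unadjusted p was under 0.05 for 7 of the 18, beside 22.5% of all, namely both of Ror2 and the brightest of Ror1, Vangl1, Prickle1, Fat4 and Dchs1. The second Ror2 probe set differed by 1.92 ± 0.37 (SE) in that fit, with an unadjusted p of 0.00180 and an adjusted p of 0.147. Its mean over the Fz4+/+ arrays, 5.50 log2, lay below the filter. The weights were 0.658, 8.81 and 0.509 for the Fz4-/- arrays of litters 1 to 3, against 2.99, 0.521 and 0.218 for the Fz4+/+ arrays, so the fit rested mainly on the Fz4-/- array of litter 2 and the Fz4+/+ array of litter 1, which come from different litters.

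Each gene's 6 values are shown by litter in the plot of brightest probe sets. The spread between litters is wide beside the gap between genotypes for some genes, such as Vangl1, but not for all. Celsr1 litter means ran from 9.29 to 9.62 log2, beside genotype gaps of 0.41, 0.23 and -0.32 within litters. Those of Dchs1 ran from 9.25 to 9.79 log2, beside gaps of 0.66, 0.05 and -0.37.

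**Figure D1:**
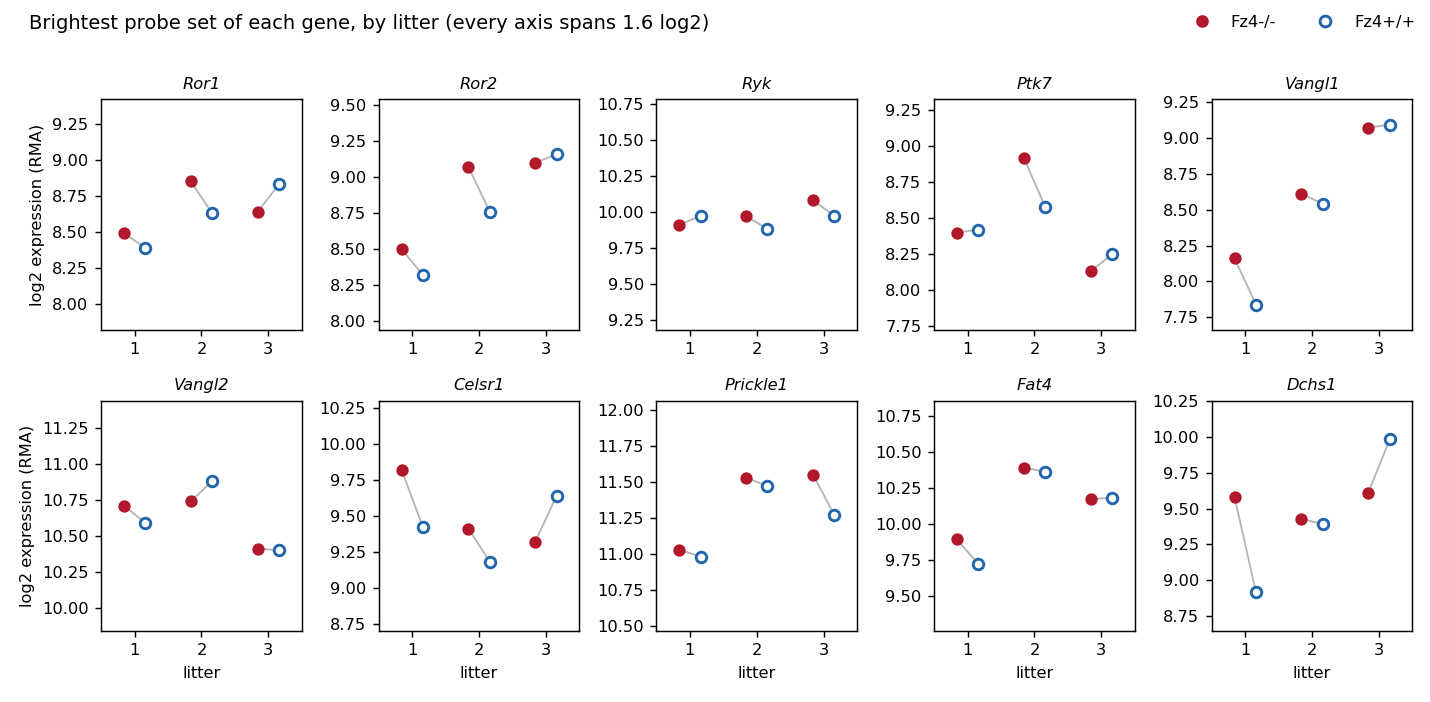
Levels of the brightest probe set of each of the 10 genes (vertical axes, log2 expression, each spanning the same width) by litter (horizontal axes). Filled points are Fz4-/- and open points Fz4+/+ kidneys, 1 array each, joined within a litter; Vangl1 runs from 7.84 to 9.09 log2 over the litters, while its genotypes differ by 0.31 log2 or less within each.

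Among the receptors, Ror1 and Ror2 are tyrosine kinase-like receptors of Wnt5a. Ror1 read 8.49, 8.85 and 8.64 log2 in Fz4-/- kidneys of litters 1 to 3, against 8.39, 8.63 and 8.83 log2 in Fz4+/+ kidneys (probe set 1429313_at). The genotypes overlapped, and the difference was 0.04 ± 0.16 (SE, 95% interval -0.35 to 0.44). The other 2 Ror1 probe sets lay below the filter, between 3.99 and 5.11 log2 on every array.

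Ror2 read 8.50, 9.07 and 9.10 log2 in Fz4-/- kidneys, against 8.32, 8.76 and 9.16 log2 in Fz4+/+ kidneys (1423428_at). The difference was 0.14 ± 0.27 (SE, 95% interval -0.51 to 0.80). Both arrays of litter 1 were lowest, whatever the genotype. A second Ror2 probe set (1457128_at) read 5.36, 6.97 and 6.81 log2 in Fz4-/- kidneys, against 4.80, 4.99 and 6.71 log2 in Fz4+/+ kidneys. Its mean was 6.38 log2 in Fz4-/- and 5.50 log2 in Fz4+/+ kidneys. It thus reached the filter of 5.89 log2 only through its level in Fz4-/- kidneys. It gave the widest gap of all tested member probe sets, 0.88 ± 0.65 (SE, 95% interval -0.70 to 2.47), and was higher in Fz4-/- in each litter, by 0.56, 1.98 and 0.10. Most of this gap came from litter 2, where the brightest Ror2 probe set differed by 0.31. limma's unadjusted p was 0.223, or 0.0830 with the litter as a block, and the exact permutation p was 0.2 (two-sided, n = 3 each, smallest possible 0.1). With each array left out in turn the difference ran from 0.53 without the Fz4+/+ array of litter 1 to 1.49 without that of litter 3, and without both arrays of litter 2 it was 0.33.

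Ryk is a Wnt-binding receptor whose kinase domain lacks normal activity. It read 9.91, 9.97 and 10.08 log2 in Fz4-/- kidneys, against 9.97, 9.88 and 9.97 log2 in Fz4+/+ kidneys (1426388_s_at), a difference of 0.05 ± 0.10 (SE, 95% interval -0.20 to 0.29). This was the narrowest interval among the brightest probe sets, and the 6 arrays spanned 0.20 log2. The other Ryk probe sets differed by 0.11 ± 0.13 (1451789_a_at) and 0.14 ± 0.31 (1447400_at, both SE). On both, the Fz4+/+ array of litter 2 read lowest, at 8.94 and 6.96 log2, and litter 2 gave the widest gap, 0.32 and 0.68.

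Ptk7 is a catalytically inactive receptor that vertebrate embryos need for planar polarity. Its sole probe set (1452589_at) read 8.40, 8.92 and 8.13 log2 in Fz4-/- kidneys, against 8.42, 8.58 and 8.25 log2 in Fz4+/+ kidneys. Both arrays of litter 2 were the highest, and the difference was 0.07 ± 0.22 (SE, 95% interval -0.47 to 0.61). Within litters it was -0.02, 0.34 and -0.12, so the sign was not the same in all.

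Among the core genes, Vangl1 and Vangl2 encode related membrane proteins that recruit Prickle1 to the cell surface. Vangl1 read 8.16, 8.61 and 9.07 log2 in Fz4-/- kidneys, against 7.84, 8.54 and 9.09 log2 in Fz4+/+ kidneys (1441097_at). The levels were ordered by litter in both genotypes, and the difference was 0.12 ± 0.37 (SE, 95% interval -0.79 to 1.03). With the litter as a block the same difference had an SE of 0.11 and an interval of -0.17 to 0.41. The second Vangl1 probe set (1427234_at) read 7.90, 7.79 and 8.56 log2 in Fz4-/- kidneys, against 7.87, 7.39 and 8.69 log2 in Fz4+/+ kidneys. There too both arrays of litter 3 were highest, but those of litter 2, not litter 1, were lowest.

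Vangl2 read 10.71, 10.74 and 10.41 log2 in Fz4-/- kidneys, against 10.59, 10.88 and 10.40 log2 in Fz4+/+ kidneys (1436118_at). The difference was -0.00291 ± 0.17 (SE, 95% interval -0.41 to 0.41), the smallest of the 10 genes. Its other probe sets went another way across litters. On 1419218_at the values were 7.13, 7.18 and 7.54 log2 in Fz4-/- kidneys, against 7.15, 6.85 and 7.38 log2 in Fz4+/+ kidneys, so litter 3 was highest where on the brightest probe set it was lowest. On 1455592_at they were 6.29, 6.77 and 6.74 log2 in Fz4-/- kidneys, against 6.48, 5.68 and 6.73 log2 in Fz4+/+ kidneys. The Fz4+/+ array of litter 2 alone made that last difference, 0.31 ± 0.30 (SE): without it the value was -0.00167.

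Celsr1 is an atypical cadherin that links polarity complexes between cells. Its sole probe set (1418925_at) read 9.82, 9.41 and 9.32 log2 in Fz4-/- kidneys, against 9.42, 9.18 and 9.64 log2 in Fz4+/+ kidneys. The difference of 0.10 ± 0.19 (SE, 95% interval -0.35 to 0.56) joined litters of opposite sign, 0.41 and 0.23 in litters 1 and 2 and -0.32 in litter 3. Without the Fz4+/+ array of litter 2, which was lowest for Celsr1, it was -0.01, and without the Fz4-/- array of litter 1 it was -0.05. The Fz4+/+ array of litter 2 was also lowest for the ureteric epithelium, early nephron epithelium, endothelium and erythroid markers. Over all tested probe sets it was lowest for 35.4%. The part of cell makeup in this was not tested.

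Prickle1, a cytoplasmic partner of the Vangl proteins, read 11.03, 11.53 and 11.55 log2 in Fz4-/- kidneys, against 10.98, 11.47 and 11.27 log2 in Fz4+/+ kidneys (1452249_at). It was higher in Fz4-/- in each litter, by 0.05, 0.06 and 0.27, and the difference was 0.13 ± 0.20 (SE, 95% interval -0.36 to 0.61). The second probe set (1442172_at) read 6.98, 6.34 and 6.13 log2 in Fz4-/- kidneys, against 6.63, 6.04 and 6.61 log2 in Fz4+/+ kidneys, with litter 3 at -0.48. The third (1444759_at) read 5.44, 4.99 and 5.02 log2 in Fz4-/- kidneys, against 4.62, 4.63 and 4.77 log2 in Fz4+/+ kidneys. It was the only one of the 21 whose genotypes did not overlap, with a difference of 0.48 ± 0.16 (SE). With no filter 4.57% of all probe sets did not overlap, so 1 of 21 was near that share. This Prickle1 probe set lay below the filter, near the low end of the array's values, which began at 2.22 log2. In a fit with no filter limma's unadjusted p was 0.0218 and the adjusted p 0.999995. The exact permutation p was 0.1, the smallest that 3 against 3 can give. Over all probe sets 1.18% had an unadjusted p under 0.05 in the fit with no filter. The plot of every probe set of Ror2, Vangl2 and Prickle1 shows how far probe sets of a gene differ.

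**Figure D2:**
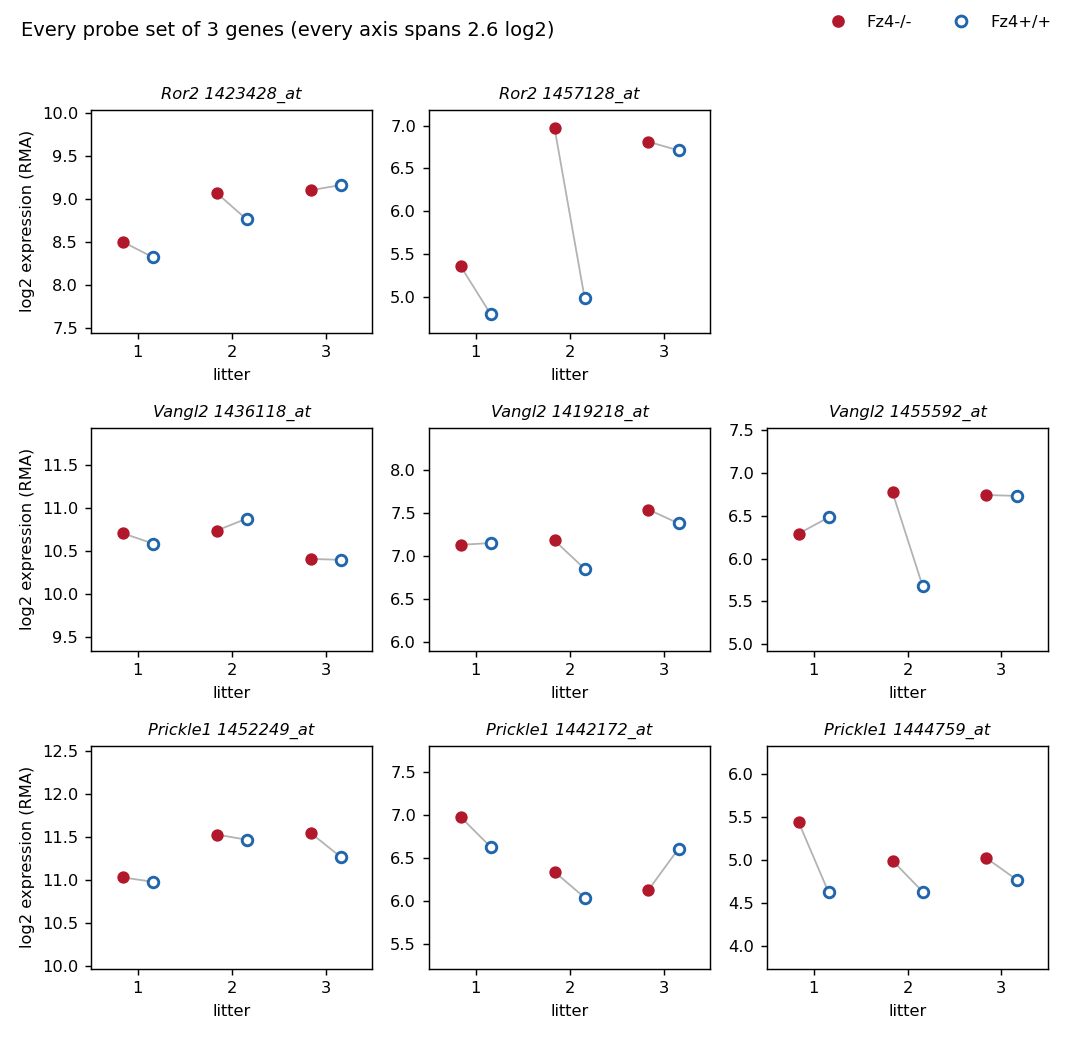
Levels on every probe set of Ror2, Vangl2 and Prickle1 (vertical axes, log2 expression, each spanning the same width) by litter (horizontal axes). Filled points are Fz4-/- and open points Fz4+/+ kidneys, 1 array each; the Ror2 probe set 1457128_at parts in litter 2, at 6.97 and 4.99 log2, and litter 3 is lowest on the Vangl2 probe set 1436118_at but highest on 1419218_at.

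Among the cadherins, Fat4 acts in the mouse from the kidney stroma, with Dachsous partners, on nephron progenitors. Fat4 read 9.89, 10.39 and 10.17 log2 in Fz4-/- kidneys, against 9.72, 10.36 and 10.18 log2 in Fz4+/+ kidneys (1460574_at). The difference was 0.06 ± 0.22 (SE, 95% interval -0.46 to 0.59), and with the litter as a block the interval was -0.19 to 0.32. The second probe set (1459749_s_at) differed by -0.09 ± 0.24 (SE), with the same order of litters. The mean of 10 renal stroma markers was 11.06, 11.14 and 11.25 log2 in Fz4-/- kidneys, against 10.92, 11.18 and 11.23 log2 in Fz4+/+ kidneys. This mean was also lowest in litter 1, but it was highest in litter 3, where the brightest Fat4 probe set was highest in litter 2. The neuron and neural crest markers were lowest in litter 1 as well, at 6.78 and 6.94 log2. The part of cell makeup in the Fat4 levels was not tested.

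Dchs1, a ligand of Fat4, read 9.58, 9.43 and 9.61 log2 in Fz4-/- kidneys, against 8.92, 9.39 and 9.98 log2 in Fz4+/+ kidneys (1429163_at). The Fz4-/- values lay close together (SD 0.09, n = 3), inside the range of the Fz4+/+ values (SD 0.53, n = 3). The difference was 0.11 ± 0.27 (SE, 95% interval -0.54 to 0.76). Within litters it was 0.66, 0.05 and -0.37. Without the Fz4+/+ array of litter 1 it was -0.14.

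Differences above 0 outnumbered those below. Of the 18 tested probe sets 16 lay above 0, with a median of 0.106, beside 61.6% and a median of 0.0334 over all tested probe sets. The 2 below 0 were the brightest of Vangl2 and the second of Fat4. The 16 include the second Ror2 probe set, which passed the filter only through its level in Fz4-/- kidneys, so its sign is no independent count. Probe sets of a gene share its transcripts, so the 18 are not independent. After quantile normalisation 15 were above 0, beside 53.7% of all tested probe sets, and after centring of the array medians 16, beside 54.9%. Without the Fz4+/+ array of litter 1 only 10 were, beside 56.9%. By litter, 12, 16 and 8 of the 18 were above 0 in litters 1, 2 and 3, beside 48.5%, 68.2% and 49.9% of all tested probe sets. The lowest of the 6 arrays was the Fz4+/+ one of litter 1 for 8 member probe sets and that of litter 2 for another 8. Over all tested probe sets these arrays were lowest for 17.1% and 35.4%.

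The same direction in all 3 litters was found for 2 of the 18, the second of Ror2 and the first of Prickle1, both higher in Fz4-/-. That Ror2 probe set passed the filter only through its level in Fz4-/- kidneys. Over all tested probe sets 21.5% kept 1 direction, so the members' share was not above the background. The plot of differences sets the litters beside the interval of each probe set.

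**Figure D3:**
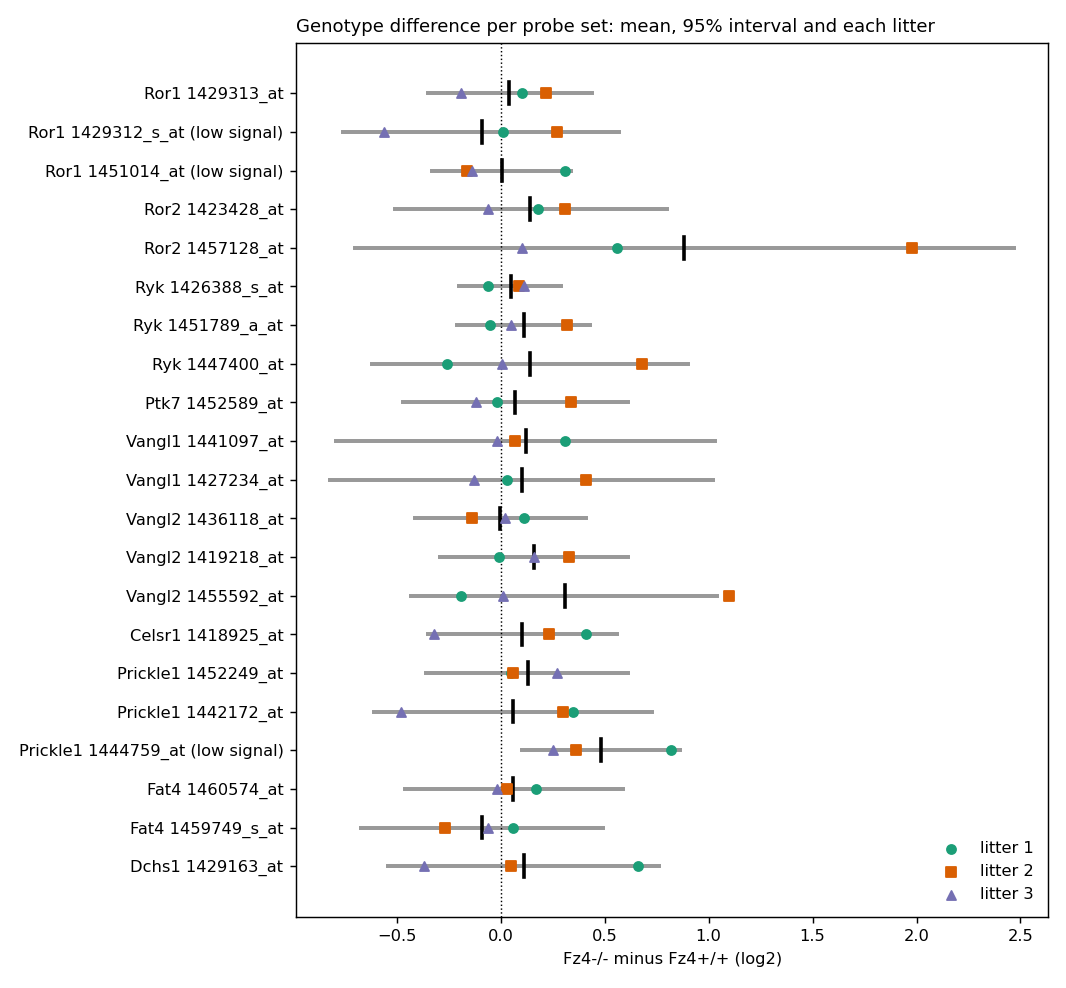
Difference between genotypes, Fz4-/- minus Fz4+/+ (horizontal axis, log2), for the 21 member probe sets (rows). Black ticks are means over 3 litters, grey bars limma's 95% intervals (from a fit with no filter for the 3 rows with low signal) and symbols the single litters; every tested interval spans 0, and the widest belongs to the Ror2 probe set 1457128_at, from -0.70 to 2.47.

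The litter held more of the members' variation than the genotype did. The litter held 30.4% to 95.8% of the sum of squares over the 6 arrays and the genotype 0.00689% to 23.6%, and the litter's share was the larger for all 18 tested probe sets. The same was true of 88.2% of all tested probe sets. The medians were 73.8% for the litter and 3.32% for the genotype among the members, beside 65.9% and 5.92% over all tested probe sets. The remainder had a median of 17.3% among the members, beside 20.9% over all. It was larger than the litter's share for Celsr1 (53.6% against 40.2%) and for Vangl2 on 1455592_at (53.8% against 30.4%). The litter has 2 degrees of freedom and the genotype 1, which favours the litter's share. The genotype's largest share, 23.6%, was that of the second Ror2 probe set, which passed the filter only through its level in Fz4-/- kidneys.

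**Figure D4:**
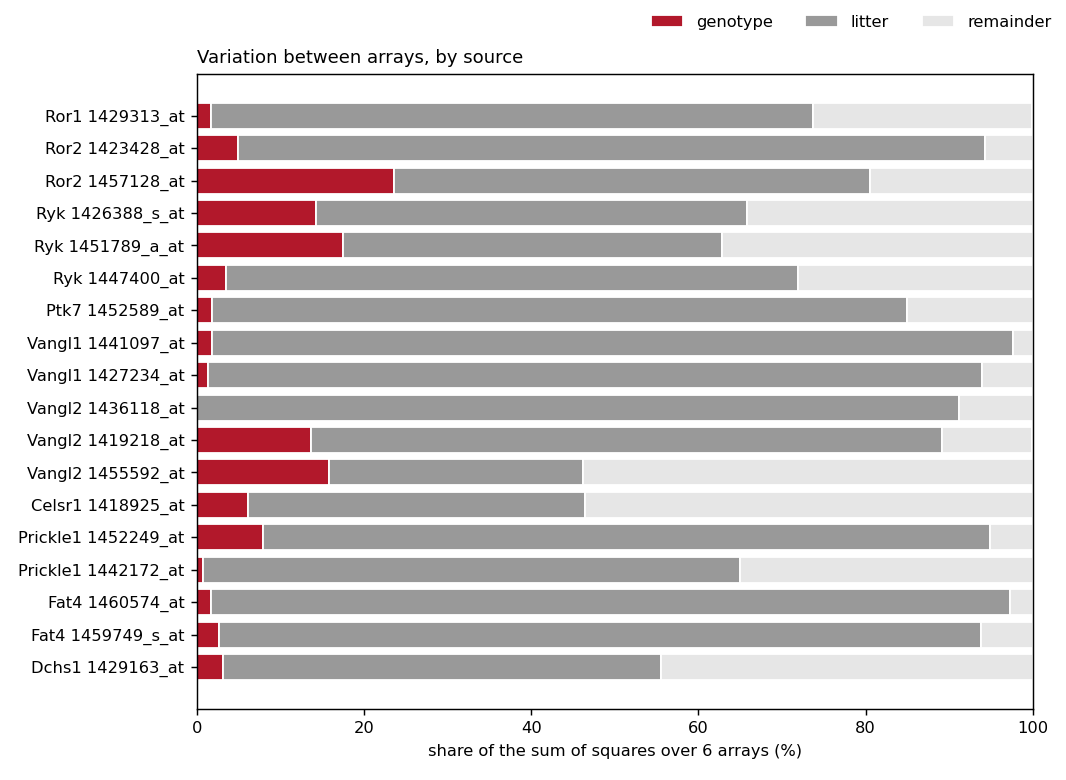
Share of the sum of squares over the 6 arrays (horizontal axis, percent) due to genotype, litter and the remainder, for the 18 tested member probe sets (rows). The litter's share is larger than the genotype's throughout, and it is highest for Vangl1 on 1441097_at, at 95.8%.

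Litters 3 and 1 differed most for Vangl1, by 1.08 on its first probe set and 0.75 on its second (litter 3 minus litter 1, means of 2 arrays), and for Ror2, by 0.72 and 1.68. Both arrays of litter 3 lay above both of litter 1 for 14 of the 18 tested probe sets and below them for 3, those of Ptk7, Vangl2 (1436118_at) and Prickle1 (1442172_at). Celsr1 alone overlapped. Litters 3 and 1 did not overlap for 70.7% of all 27022 tested probe sets, with litter 3 above for 13145 and below for 5967. The lean upward was thus shared by the whole array. In a test chosen after the data were seen, limma's moderated F for the litter, given the genotype, called 0 of the 18 at an adjusted p under 0.05, beside 0% of all tested probe sets. The unadjusted p was under 0.05 for 7 of the 18, beside 23.0% of all. These were both of Vangl1 (0.00234 and 0.00617), both of Fat4 (0.0149 and 0.0171), and the brightest of Ror2 (0.0120), Prickle1 (0.0268) and Ptk7 (0.0484). The adjusted p of these 7 ran from 0.145 to 0.215. What set the litters apart was not tested.

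Among 33 further genes of these pathways that were measured, of 39 listed, none passed the test: limma called 0, with 0 at an unadjusted p under 0.05, beside 0.750% of the brightest probe sets of all tested genes. Of the 33, 18 were above 0, with a median of 0.0150, beside 63.5% and a median of 0.0339 over 12535 tested genes. Dvl2, of the Dishevelled proteins that work below frizzled receptors, read 8.74, 9.03 and 8.82 log2 in Fz4-/- kidneys, against 8.56, 8.51 and 8.67 log2 in Fz4+/+ kidneys. Its genotypes did not overlap, and the difference was 0.28 ± 0.12 (SE, limma's unadjusted p of 0.0559). Its relative Dvl3 differed by -0.17 ± 0.13 (SE) and the Dishevelled-binding gene Dact1 by 0.14 ± 0.13 (SE). In all, 7 of 9 other core genes were above 0.

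All 3 measured relatives of Fat4 and Dchs1 were above 0, at 0.03 for Fat1, 0.10 for Fat3 and 0.11 for Fjx1, a Golgi kinase that modifies Fat cadherins. Of 5 Wnt ligands 2 were above 0. Wnt9b read 8.48, 8.69 and 8.76 log2 in Fz4-/- kidneys, against 8.44, 8.08 and 8.52 log2 in Fz4+/+ kidneys, a difference of 0.30 ± 0.16 (SE, limma's unadjusted p of 0.106). This ligand of the ureteric epithelium was lowest on the Fz4+/+ array of litter 2, as was the mean of that tissue's markers, among which it counts. Wnt11, a ligand of ureteric tips, differed by -0.10 and Wnt4, which drives nephron formation, by 0.09.

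Of the 4 polarity-linked frizzled receptors 2 were above 0, with Fzd6 at 0.22 ± 0.14 (SE), Fzd2 at -0.03 and Fzd3 at -0.02. Of 12 effectors 4 were above 0. The kinase gene Mapk9 read 10.82, 10.89 and 10.82 log2 in Fz4-/- kidneys, against 10.71, 10.80 and 10.66 log2 in Fz4+/+ kidneys. These did not overlap, though the difference was only 0.12 ± 0.10 (SE). Mapk8, its close relative, differed by -0.05 and the GTPase gene Rac1 by -0.09. Dvl2 and Mapk9 were thus the only 2 of the 33 whose genotypes did not overlap, where 3.81% of all tested genes did not overlap on their brightest probe sets.

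**Figure D5:**
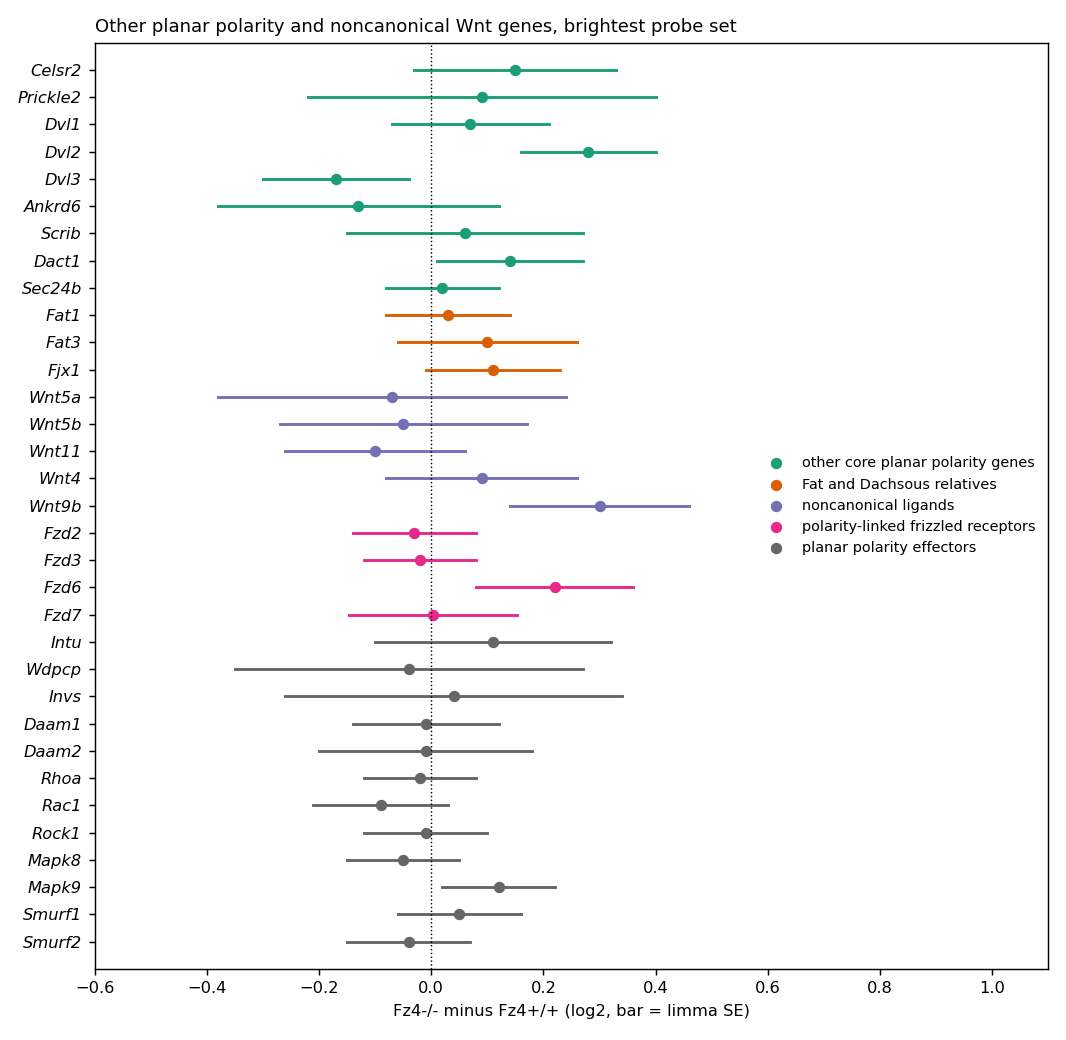
Difference between genotypes, Fz4-/- minus Fz4+/+ (horizontal axis, log2), for the brightest probe set of 33 further pathway genes (rows), coloured by list. Points are means and bars limma's SE; Wnt9b is farthest to the right at 0.30 and Dvl3 farthest to the left at -0.17.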

How the data were processed

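Whole kidneys of 3 Fz4-/- and 3 Fz4+/+ samples were compared, with groups and litters taken from the labels. The authors processed the arrays with RMA according to the submitters' processing notes (version not given). Deposited were log2 values, 1 per probe set and sample, from 2.22 to 14.79, and these were used unchanged. RMA makes array distributions nearly equal and compresses differences near background. No detection calls were made here, and the number of arrays limits precision.

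The platform annotation named 1 gene for 34958 probe sets, several for 932 and none for 9211. All 21 member probe sets matched RefSeq genes of GRCm38.p6 by Entrez number, and 0 symbols changed. A gene's brightest probe set has the highest mean over all arrays. The 64 controls were dropped, and probe sets whose mean reached the 40th percentile (5.89 log2) entered the test with limma 3.58.1 in R 4.3.3 (lmFit, eBayes, genotype as the only term, two-sided, Benjamini-Hochberg over 27022 probe sets, threshold 0.05). Single values were compared by exact permutation, with a smallest p of 0.1. The fits were tested on simulated data.

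Samples with the same number come from the same litter, per the labels, and deviations from the genotype means correlated by 0.577, 0.178 and 0.809 in litters 1, 2 and 3. The litter block was an alternative, beside other filters, normalisations, variance priors, array weights, probe set choices and arrays left out.

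Members, the 5 pathway lists, the 10 marker lists and the naming rule (all members, and up to 3 genes per pathway list with the smallest unadjusted p) were chosen with earlier results of these data known. The marker lists were used as mean levels per array. Their differences, Fz4-/- minus Fz4+/+, were 0.18 for ureteric epithelium, -0.11 for nephron progenitors, 0.04 for renal stroma, 0.21 for early nephron epithelium, 0.14 for endothelium, -0.88 for striated muscle, -0.16 for neurons and neural crest, -0.68 for liver, -0.09 for macrophages and 0.04 for erythroid cells, with exact permutation p (n = 3 each) from 0.1 for endothelium to 1 for erythroid cells.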

Additional observations from a re-analysis of the deposited data

How the results depend on the processing

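No member probe set was called under any setting run, the litter block included, and the block changed no other call. Array weights called 2 probe sets of the whole array, both of Fzd4. The count of member probe sets without overlap between genotypes was 1 of 21 with no filter (a Prickle1 probe set below the filter), beside 4.57% of all probe sets. With an array left out it was 0 to 3 of 18. It was 3 without the Fz4-/- array of litter 1, beside 11.8% of all tested probe sets. It was 1 and 2 without the Fz4+/+ arrays of litters 1 and 3, beside 10.9% and 26.0%. It was 0 without any other, beside 6.67% to 8.91%. Without both arrays of litter 1, 2 or 3 it was 4, 0 and 2 of 18, beside 20.6%, 12.4% and 32.0% (chosen after the data were seen). Fewer arrays leave less room for overlap. The count above 0 ran from 10 to 15 with an array left out. It was 10 without the Fz4+/+ array of litter 1, beside 56.9% of all tested probe sets. It was 12 and 15 without those of litters 2 and 3, beside 49.5% and 67.1%. Without the Fz4-/- arrays of litters 1 to 3 it was 15, 13 and 15, beside 67.0%, 59.7% and 53.0%.

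On the brightest probe sets, differences changed sign with a single array left out for 9 of the 10 genes. Ryk, the exception, ran from 8.36e-05 to 0.09 with an array left out. Array weights moved 7 of the 10 differences to between 0.37 and 0.61. With an array left out they ran from -0.07 to 0.15 for Ror1, -0.07 to 0.35 for Ror2, -0.15 to 0.24 for Ptk7, -0.20 to 0.42 for Vangl1, -0.12 to 0.13 for Vangl2, -0.05 to 0.22 for Celsr1, -0.000977 to 0.30 for Prickle1, -0.12 to 0.20 for Fat4 and -0.14 to 0.39 for Dchs1. Ror1 was at -0.01 after quantile normalisation and -0.01 with the mean of its probe sets, as was Fat4 at -0.01 with that mean. Vangl2 was at 0.10 with array weights. With the mean of their probe sets Vangl2 was at 0.15, Ryk at 0.10, Prickle1 at 0.22 and Ror2 at 0.51 ± 0.43 (SE), where the second Ror2 probe set enters. Without both arrays of litter 2 Ror1 was at -0.04, Ptk7 at -0.07 and Vangl2 at 0.06, and without those of litter 1 Celsr1 was at -0.05 and Dchs1 at -0.16. The cause was not tested. The marker lists kept their direction under both scalings. Near background, signal limits what can be read from the low probe sets of Ror1 and Prickle1. The same holds for the second Ror2 probe set, whose Fz4+/+ mean lay below the filter.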
